A study of Mus musculus with 11 samples.

Results

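The peaks described here are 340 sites at which WDR5 lay on histone H3 trimethylated at lysine 4 (H3K4me3) in wild-type (WT) day 2 embryoid bodies. They were chosen by position, as the peaks of the first WT WDR5 list on chromosomes 1 to 19, X and Y that shared 1 base or more with a WT H3K4me3 peak. They made up 340 of the 725 peaks of that list and lay on 335 of the 9836 WT H3K4me3 peaks, or 3.41%. The WT peaks themselves chose the sites, so their WT heights and their overlap with the mark are given as description. The assay was CUT&RUN with antibodies against WDR5, P53 or H3K4me3, in which an antibody on chromatin directs a nuclease to release the bound DNA for sequencing. The Wdr5 and p53 double knockout (DKO) had 2 peak lists for WDR5, 2 for P53 and 1 for H3K4me3. The Wdr5 knockout (KO) had 1 list, for H3K4me3, and WT had 2 lists for WDR5, 2 for P53 and 1 for H3K4me3. All genotypes shared an embryonic stem cell line with a GFP reporter knocked into Rx, a gene of the early eye field. All were differentiated by SFEBq, a serum-free aggregation method, in GMEM with 5% KSR. Doxycycline was withdrawn at day 0, 2% matrigel was given at day 1, and 2 µg of antibody went with each 2 M (mega) cells. The sources used here do not say what the doxycycline controlled or whether a genotype is 1 clone.

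WDR5 is a WD40-repeat protein that, with RBBP5, ASH2L and DPY30, forms the core on which the MLL and SET1 methyltransferases trimethylate H3K4 at promoters. The same protein also serves other complexes and partners, among them the NSL acetyltransferase complex and MYC, and in mammalian cell lines it is known for binding at ribosomal protein genes. H3K4me3 forms on nucleosomes around the start sites of active genes. P53, the tumour suppressor transcription factor, binds its own set of target genes after stress.

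Among the gene lists, ribosomal protein genes carried the most sites, and an upstream sequence is shown for each of the 7 genes of this kind whose promoter (250 bases before to 50 after a start site) overlapped a site. Each run gives the 250 bases before a RefSeq start site (GRCm38.p6, the assembly of mm10), 5′ to 3′ on the strand of the gene. Capitals mark matches to 9 short motifs searched on both strands. CCGGAAGT is a site of ETS factors, TCTCGCGA is part of the palindrome linked with ZBTB33, CACGTG is the E-box of MYC and its relatives, GGGCGG is the GC box and CCAAT is the box bound by NF-Y. The others were GCATGCGC (NRF1), AAGATGGCG (YY1), TATAAA (the TATA box) and TGACGTCA (CREB).
Rps18, chr17:33955666-33955915, minus strand: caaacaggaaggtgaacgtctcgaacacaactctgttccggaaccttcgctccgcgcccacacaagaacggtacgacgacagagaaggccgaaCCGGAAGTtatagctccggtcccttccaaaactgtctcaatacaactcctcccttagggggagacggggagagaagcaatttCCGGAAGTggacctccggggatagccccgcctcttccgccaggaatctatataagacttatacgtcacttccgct
Rpl37, chr15:5116363-5116612, plus strand: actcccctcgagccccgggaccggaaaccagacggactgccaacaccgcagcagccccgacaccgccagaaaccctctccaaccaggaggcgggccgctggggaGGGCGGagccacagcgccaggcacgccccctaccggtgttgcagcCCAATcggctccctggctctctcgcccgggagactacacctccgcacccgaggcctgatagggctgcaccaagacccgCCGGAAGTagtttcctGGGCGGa
Rps6, chr4:86857368-86857617, minus strand: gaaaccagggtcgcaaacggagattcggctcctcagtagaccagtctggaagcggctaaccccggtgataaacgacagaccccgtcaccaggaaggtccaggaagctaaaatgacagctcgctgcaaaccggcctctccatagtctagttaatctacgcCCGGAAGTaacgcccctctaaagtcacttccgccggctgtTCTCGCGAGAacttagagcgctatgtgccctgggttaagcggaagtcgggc
Rps19, chr7:24884342-24884591, plus strand: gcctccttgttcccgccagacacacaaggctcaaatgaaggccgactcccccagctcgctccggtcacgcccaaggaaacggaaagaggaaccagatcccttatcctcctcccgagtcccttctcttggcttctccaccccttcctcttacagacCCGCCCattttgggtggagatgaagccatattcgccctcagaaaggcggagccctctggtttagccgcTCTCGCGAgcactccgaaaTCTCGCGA
Rpl27, chr11:101441995-101442244, plus strand: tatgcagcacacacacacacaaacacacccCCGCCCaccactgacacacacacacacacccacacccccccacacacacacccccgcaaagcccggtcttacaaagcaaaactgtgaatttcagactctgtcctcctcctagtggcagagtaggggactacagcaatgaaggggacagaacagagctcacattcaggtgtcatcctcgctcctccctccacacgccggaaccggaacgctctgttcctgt
Rpl11, chr4:136053394-136053643, minus strand: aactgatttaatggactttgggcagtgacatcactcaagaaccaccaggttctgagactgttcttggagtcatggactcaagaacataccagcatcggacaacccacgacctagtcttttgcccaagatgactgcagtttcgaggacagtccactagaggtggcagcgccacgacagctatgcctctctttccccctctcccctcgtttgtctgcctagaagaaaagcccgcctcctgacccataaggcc
Rpl37a, chr1:72711010-72711259, plus strand: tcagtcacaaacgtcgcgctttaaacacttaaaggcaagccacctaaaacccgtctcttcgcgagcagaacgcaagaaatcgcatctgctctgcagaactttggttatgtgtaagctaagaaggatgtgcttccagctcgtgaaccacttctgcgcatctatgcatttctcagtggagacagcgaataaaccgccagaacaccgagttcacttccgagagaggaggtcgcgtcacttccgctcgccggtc

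Rps18 carried 2 ETS motifs, Rpl37 carried 1, and Rps6 carried 1 beside the ZBTB33 palindrome. Rps19 held 2 ZBTB33 motifs and 1 GC box, Rpl27 held 1 GC box, and the stretches of Rpl11 and Rpl37a held none of the motifs. The WDR5 summits of Rps6, Rps18, Rpl11, Rpl37 and Rpl27 lay 62, 79, 127, 182 and 369 bases downstream of the start site, and that of Rps19 lay 298 bases upstream. The summit of Rpl37a, 41 bases upstream, was the only one of the 7 inside the printed bases, and the peaks of Rpl27, Rpl37 and Rps6 reached only the bases after the start site. Over the 300-base promoters, the ETS motif stood in 4 of the 8 ribosomal protein promoters that overlapped a site, in 2 of the 22 others with H3K4me3 and no WDR5 peak, and in 5.15% of all 21262 coding promoters. The ZBTB33 motif stood in 3 of the 8, in 2 of the 22, and in 1.41% of all promoters. Wilson 95% intervals of counting error for the 8 and the 22 overlapped for both motifs. They were 21.5% to 78.5% and 2.53% to 27.8% for ETS. For ZBTB33 they were 13.7% to 69.4% and 2.53% to 27.8%. The other motifs were as frequent or less frequent in the promoters that overlapped a site but for NRF1, in 1 of 8 against 0 of 22. Motifs were counted over the whole promoter and need not lie within the WDR5 peak. The GC box stood in 4 of 8 against 13 of 22, the CCAAT box in 1 of 8 against 6 of 22, the E-box in 0 of 8 against 5 of 22, CREB in 0 of 8 against 4 of 22, YY1 in 0 of 8 against 1 of 22, and the TATA box in none of either. The 8 promoters belong to 7 genes, and nearby start sites of 1 gene share bases. Rps19 stands among the 8 with 2 start sites, whose promoters hold the same ZBTB33 matches. A match describes the letters, and binding of these factors was not measured here.

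The next 4 stretches belong to genes of other functions. They are shown because their sites had the highest folds among the WT-only sites in both WT lists whose summit lay inside such a stretch.
Map3k10, chr7:27674582-27674831, minus strand: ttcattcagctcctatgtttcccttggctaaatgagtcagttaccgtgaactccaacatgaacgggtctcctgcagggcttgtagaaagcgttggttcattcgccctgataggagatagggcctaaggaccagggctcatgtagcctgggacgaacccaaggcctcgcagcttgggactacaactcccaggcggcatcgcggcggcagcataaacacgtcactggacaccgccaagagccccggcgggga
Evi5l, chr8:4166317-4166566, plus strand: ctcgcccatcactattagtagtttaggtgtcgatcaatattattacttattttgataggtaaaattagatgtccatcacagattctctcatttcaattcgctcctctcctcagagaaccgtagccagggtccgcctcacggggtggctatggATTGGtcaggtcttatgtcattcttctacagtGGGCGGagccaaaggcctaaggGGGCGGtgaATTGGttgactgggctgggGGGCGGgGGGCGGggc
Tcf3, chr10:80433636-80433885, minus strand: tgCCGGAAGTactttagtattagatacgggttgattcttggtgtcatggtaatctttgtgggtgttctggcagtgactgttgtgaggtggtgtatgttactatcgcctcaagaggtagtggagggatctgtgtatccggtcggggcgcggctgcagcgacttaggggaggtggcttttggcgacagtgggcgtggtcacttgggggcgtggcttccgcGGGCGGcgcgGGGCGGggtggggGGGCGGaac
Zfp788, chr7:41633281-41633530, plus strand: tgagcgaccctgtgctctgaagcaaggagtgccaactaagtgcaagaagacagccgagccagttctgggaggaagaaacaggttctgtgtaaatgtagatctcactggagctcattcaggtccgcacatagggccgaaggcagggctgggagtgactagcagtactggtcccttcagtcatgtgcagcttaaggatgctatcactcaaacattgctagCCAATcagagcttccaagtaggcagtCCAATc

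These stretches had little in common. Map3k10 held none of the motifs, Evi5l held 4 GC boxes and 2 CCAAT boxes, Tcf3 held 1 ETS motif and 3 GC boxes, and Zfp788 held 2 CCAAT boxes. Across the 151 promoters that overlapped a site called in WT WDR5 alone, 14.6% held the ETS motif, against 12.4% of 3656 promoters with H3K4me3 and no WDR5 peak. The GC box stood in 69.5% against 66.6%, the CCAAT box in 43.0% against 36.7%, and 46.2% and 38.2% of all coding promoters held them. The median GC content was 60% against 62.0%, and 56.3% over all. In the GC box, CCAAT box, ETS motif and GC content the promoters that overlapped a WT-only site were close to the other marked promoters. The ZBTB33 motif differed more, in 8 of the 151 (5.30%, 2.71% to 10.1%) against 2.54% (2.08% to 3.11%). These intervals overlap, and the 8 include the 3 ribosomal protein promoters given above.

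The WDR5 lists rested on 36.4 and 33.7 M fragments in DKO and on 26.6 and 24.1 M in WT. The H3K4me3 libraries held 22.3 M fragments in KO, 43.2 M in DKO and 34.2 M in WT, and gave 918, 6418 and 9836 peaks. The second WDR5 list of WT was called on a merged alignment that shares fragments with the first, since 174 of the 221 sites in both lists (78.7%) had the same summit base. The second lists of DKO WDR5, WT P53 and DKO P53 were also called on merged alignments, and how far these pairs share fragments is not shown here. DKO P53 list 2 held 57.5 M fragments against 32.8 M in list 1. Each genotype was counted as 1 library per antibody, and no difference between genotypes has a replicate check. The fold enrichment of a peak is the authors' ratio of its pileup to the local background of its own library, and folds of different lists are not scaled to each other. Of 5 pluripotency markers 4 had H3K4me3 in WT (Pou5f1, Sox2, Utf1 and Tet1), as did 3 of 5 anterior neural markers (Otx2, Six6 and Zic2), 1 of 5 mesoderm and endoderm markers (Eomes) and 1 of 5 feeder markers (Thy1). No site lay within 1 kb of any of these.

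The sites were modest peaks. Their median WDR5 fold enrichment was 5.05, from 1.95 to 42.5, and the median pileup at the summit was 21 fragments. The median distance between the WDR5 summit and the nearest H3K4me3 summit was 118.5 bases. The smallest overlaps that still counted were 9 bases at Canx, an endoplasmic reticulum chaperone, and 15 bases at Txn1, a thioredoxin. Just outside lay a peak 2 bases from the mark at Zfp78 and peaks 10 bases from it at Rab40c and Abhd2.

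Of the 340 sites, 221 (65.0%) were called again in the second WT list, against 60.4% of all 725 WDR5 peaks. A peak was also called in a DKO WDR5 list at 108 (31.8%), against 20% of all 725, and in any of the 4 P53 lists at 66 (19.4%), against 11.2%. Of the 232 sites in no DKO WDR5 list, 124 were in both WT lists. The marks for the second WT list and the DKO WDR5 lists are part of the rule, and nothing is read from these shares. Presence in the DKO WDR5 and P53 lists, seen after the data were examined, divided the sites into 3 groups. WT-only sites, in no DKO WDR5 list and no P53 list, numbered 219. DKO-called sites, in a DKO WDR5 list and no P53 list, numbered 55, and P53-called sites numbered 66, of which 53 were also in a DKO WDR5 list. The second WT list held 116 of the WT-only, 48 of the DKO-called and 57 of the P53-called sites. WT-only sites were in 2 to 5 of the 11 lists, a range set by the rule and by the definition of the group. Of the P53-called sites, 34 were in all 11.

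**Figure D1:**
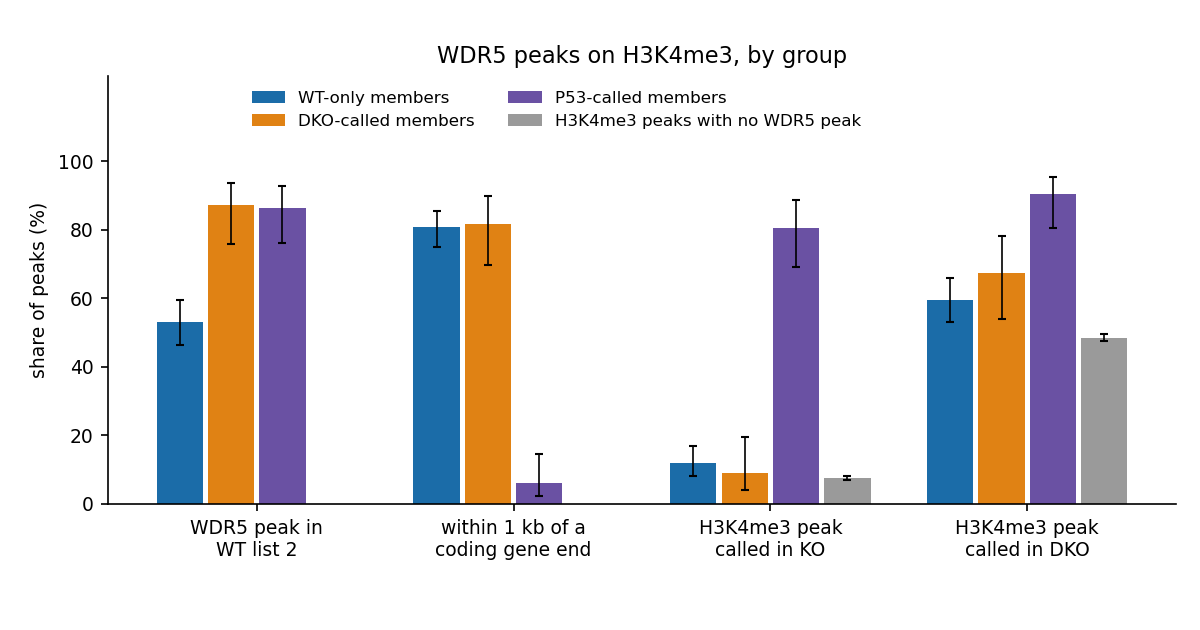
Share of peaks (%) in each group of WDR5 sites on H3K4me3 (219 WT-only, 55 DKO-called and 66 P53-called sites) and, for the last 2 features, of the 9501 H3K4me3 peaks with no WDR5 peak. Bars are shares and whiskers are Wilson 95% intervals of counting error. The P53-called sites stand apart, with 6.06% near a gene end and 80.6% of their H3K4me3 peaks called in KO.

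The P53-called sites lay in other places than the WT-only and DKO-called sites. An end of a protein-coding gene was within 1 kb of 177 of the 219 WT-only sites (80.8%, Wilson 95% interval 75.1% to 85.5%) and of 45 of the 55 DKO-called sites (81.8%, 69.7% to 89.8%). The same held for 4 of the 66 P53-called sites (6.06%, 2.38% to 14.6%). Of all 9836 WT H3K4me3 peaks, 76.9% were this near a gene end, as were 77.2% of those with no WDR5 peak. The intervals of the WT-only and DKO-called sites cover both shares, so closeness to gene ends does not set these 2 groups apart from the mark. Gene ends were used because the gene table gives no strand. The intervals of the gene-end share of P53-called sites and of both other groups do not overlap, and all intervals here cover counting error only. In the bar chart of shares this is the widest gap between the groups.

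The WT-only sites lay at genes of many functions. The highest of them sat between Map3k10, a mixed-lineage kinase, and Zfp607b, a zinc finger gene, on chromosome 7 from 27674653 to 27674968. No DKO WDR5 list had a peak there, and the WT lists had folds of 9.08 and 8.23. H3K4me3 at this locus had no peak in KO, 6.56 in DKO and 7.95 in WT. Ercc1 encodes a subunit of a nucleotide excision repair nuclease, and its site was likewise absent from DKO WDR5, with 8.39 and 7.52 in WT. Its H3K4me3 had no peak in KO, 3.68 in DKO and 7.26 in WT. Between Cct7, a subunit of the cytosolic chaperonin, and Pradc1, the WT WDR5 folds were 8.24 and 7.01, and H3K4me3 had no peak in KO, 4.80 in DKO and 6.10 in WT. These loci show the commonest pattern of H3K4me3 calls under WT-only sites, called in DKO and not in KO, which 105 of the 218 peaks had. Over all WT H3K4me3 peaks 4138 of 9836 had it. The lack of a WDR5 call in DKO is part of the definition of the group.

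Some high WT-only sites had no H3K4me3 call in either mutant. At Evi5l, a gene with a TBC domain, H3K4me3 had no peak in KO or DKO and 4.59 in WT, beside WDR5 folds of 7.36 and 7.01 in WT. Between Chd1l, a chromatin remodeller of DNA repair, and Fmo5 the H3K4me3 fold was 3.98 in WT alone, and WDR5 had 6.87 and 6.54. Between Nlgn2, a synaptic adhesion gene, and Tmem256 the H3K4me3 fold was 5.99 in WT alone. Other loci were ranked by the WT H3K4me3 fold, among peaks that carry a site and had no call in either mutant. The highest were at Pnp, a purine salvage enzyme (6.95), and between Dcaf6 and Mpc2, a mitochondrial pyruvate carrier (6.35). Next came Bcl7c, a BAF complex subunit (6.34), Med11, a Mediator subunit (6.14), and Tuba1a, a neuronal tubulin (6.03). At Pnp, Bcl7c and Med11 WDR5 was called in the first WT list alone, with folds of 4.39, 4.05 and 4.44. At Dcaf6 and Tuba1a it was called in both WT lists, with 4.93 and 4.67 in the first. A missing call says that the peak did not pass the threshold of that library, not that the mark was absent.

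Transcription factors and chromatin genes with WT-only sites included Tcf3, an E-protein, with WDR5 folds of 7.32 and 7.41 in WT and H3K4me3 folds of 4.43 in DKO and 4.78 in WT. Pagr1a, a subunit of the MLL3 and MLL4 complexes that themselves hold WDR5, had a site in the first WT list alone, with a fold of 4.59. It was 1 of 19 marked MLL and SET1 complex genes, a share of 5.26% beside 3.87% over all marked protein-coding genes. Eef1g, a subunit of elongation factor 1, shared its site with Tut1, at 6.84 and 6.63 in WT, and Eif3d, a subunit of initiation factor 3, had 6.29 and 5.29.

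Near start sites, WDR5 summits lay on both sides and seldom just before the start site. Of the 219 WT-only summits, 159 lay within 1 kb of a start site in the promoter table, and 41 of these (25.8%) fell 100 to 200 bases downstream. Another 39 fell 100 to 300 bases upstream, and 7 (4.40%) in the 100 bases just before the start site. The 42 DKO-called summits within 1 kb had 26.2% and 2.38% in the same 2 bins. The H3K4me3 summits of the peaks that carry the WT-only sites had 20.3% and 2.53%, so these bins do not set WDR5 or the WT-only sites apart. In all, 87 (54.7%) were downstream, with a median position of 65 bases downstream. The H3K4me3 summits of the same peaks were downstream in 69.0%, with a median of 149 bases, and those of peaks with no WDR5 peak in 81.8%, with a median of 290 bases. Of the WDR5 peaks away from H3K4me3, 170 lay within 1 kb of a start site, and 29.4% of them were downstream. Being on a mark that lies mostly downstream is part of the rule, so the downstream share of the sites follows in part from how they were chosen. Sites on chromosome 18 are left out of these positions, as that chromosome has no start site in the table. In all, 17491 of 21883 protein-coding genes had one, and positions were taken from the nearest listed start site of any coding gene. A site at a gene with none was thus left out or measured from a neighbour. The site at Rpl7, for example, was left out because its nearest listed start site, of Crisp4, was 2041348 bases away.

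**Figure D2:**
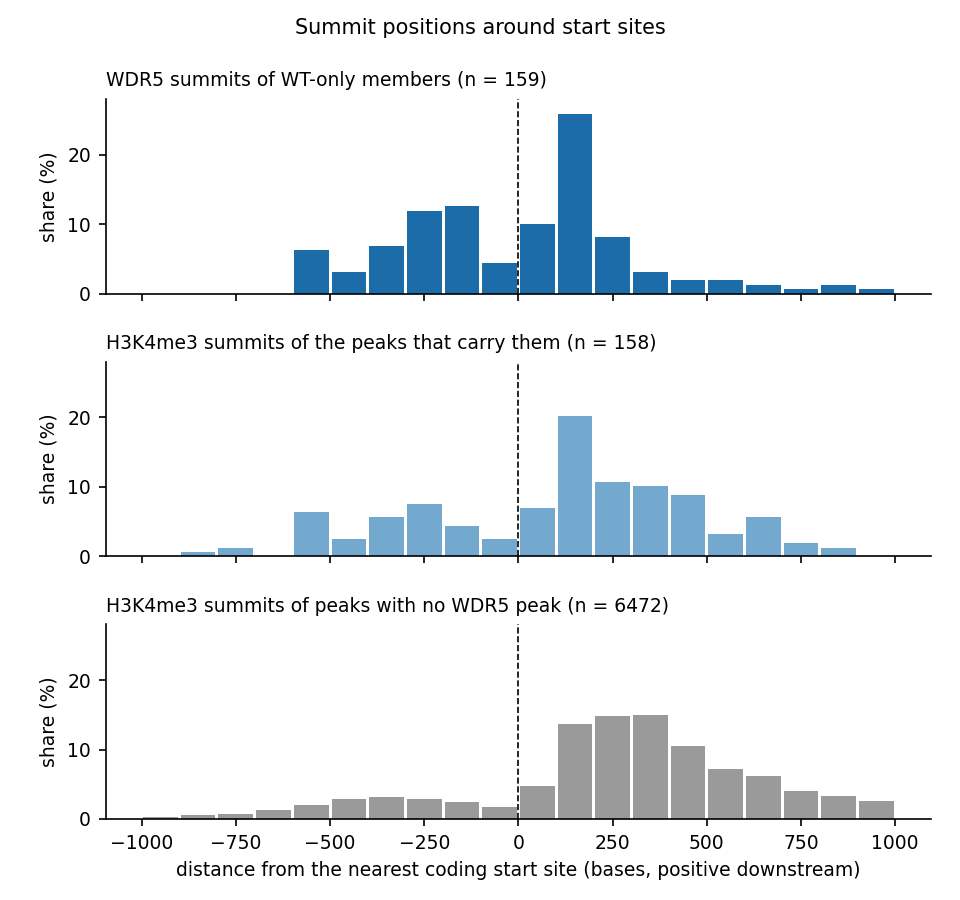
Positions of summits within 1 kb of the nearest coding start site, in bins of 100 bases, as a share (%) of the summits in each panel. The 159 WDR5 summits of WT-only sites form a peak 100 to 200 bases downstream and a second, broader one upstream. The H3K4me3 summits of the peaks that carry them also have their highest bin at 100 to 200 bases, and H3K4me3 summits lie mostly downstream.

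Of the 18 sites at ribosomal protein genes, 14 had a start site of a coding gene within 1 kb in the table. Of the 14, 11 lay downstream of the nearest one. For the site at Rpl41 this was the start site of Zc3h10, with the summit 202 bases upstream of it. The median position of the 14 was 158.5 bases downstream, against 65 over all 159 WT-only summits. The position of the 18 genes along the chromosomes gave no single cluster, since Rpl7 and Rpl37a are on chromosome 1, Rps3 and Rps19 on chromosome 7, and Rpl23 and Rpl27 on chromosome 11.

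Ribosomal protein genes held 18 of the sites, all WT-only. Of 68 such genes with H3K4me3 in WT, 18 (26.5%) had a site within 1 kb, against 3.87% of all 7759 marked protein-coding genes. Counting WT-only sites, the background was 3%. The large subunit had 13 of 42 (Rpl5, Rpl7, Rpl9, Rpl11, Rpl13, Rpl23, Rpl24, Rpl27, Rpl29, Rpl32, Rpl37, Rpl37a and Rpl41) and the small subunit 5 of 26 (Rps3, Rps6, Rps14, Rps18 and Rps19). Of the 18, 14 were in both WT lists. The proteins of the mitochondrial ribosome gave 0 of 69, and the oxidative phosphorylation genes 2 of 64 (Cycs, the cytochrome of the electron transport chain, and Sdha, a succinate dehydrogenase subunit).

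**Figure D3:**
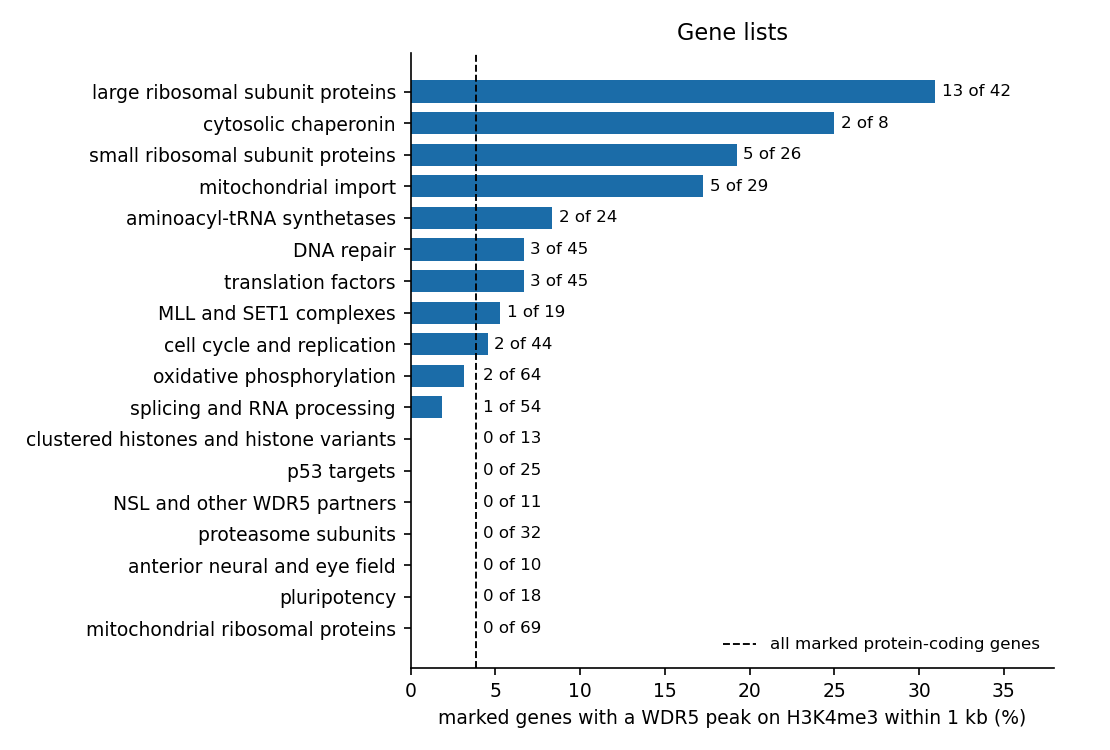
Share (%) of the genes of each list marked by H3K4me3 in WT that had a WDR5 site on H3K4me3 within 1 kb, with the counts beside the bars. The dashed line is the share over all 7759 marked protein-coding genes, 3.87%, and the large ribosomal subunit list is at 13 of 42.

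Other lists gave few genes. Mitochondrial import had 5 of 29, namely Hspa9, Samm50, Timm13, Timm21 and Tomm70a, and the cytosolic chaperonin had 2 of 8, Cct4 and Cct7. Translation factors had 3 of 45 (Eef1g, Eif3d and Eif5b), aminoacyl-tRNA synthetases 2 of 24 (Farsb, a subunit of phenylalanyl-tRNA synthetase, and Lars2), and DNA repair 3 of 45 (Brca1, Ercc1 and Fanci). Cell cycle and replication genes had 2 of 44 (Cdca3 and Pcna) and splicing and RNA processing 1 of 54 (Sf3b3). Proteasome subunits (32 marked), pluripotency genes (18), genes of the anterior neural plate and eye field (10), p53 targets (25), NSL complex and other partner genes (11), histone genes (13) and the 1 marked mesoderm and endoderm gene had none. Most of these lists are small, and a count of 0 does not set them apart from the background share.

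H3K4me3 under the P53-called sites was called more often in KO than under the other groups. Of the 335 H3K4me3 peaks with a site, 81 (24.2%) were called in KO, against 8.08% of all WT H3K4me3 peaks, and 223 (66.6%) in DKO, against 49.2%. The peaks under P53-called sites supplied 50 of the 81, with 50 of 62 called in KO (80.6%, 69.2% to 88.6%) and 56 of 62 in DKO (90.3%). Under WT-only sites 26 of 218 were called in KO (11.9%, 8.27% to 16.9%) and 130 in DKO (59.6%, 53% to 65.9%). Under DKO-called sites 5 of 55 were called in KO (9.09%, 3.95% to 19.6%) and 37 in DKO (67.3%, 54.1% to 78.2%), and the intervals of these and of the WT-only sites overlap. Among the 9501 peaks with no WDR5 peak the shares were 7.52% in KO (7% to 8.06%) and 48.6% in DKO (47.6% to 49.6%). Of the 192 WT-only peaks that were not called in KO, 105 were called in DKO (54.7%), against 45.8% of all 9041 WT H3K4me3 peaks not called in KO. Among WT-only sites in both WT lists 15 of 116 (12.9%) had H3K4me3 called in KO and 73 (62.9%) in DKO, and among those in the first list alone 12 of 103 (11.7%) and 58 (56.3%). The Wilson 95% intervals of the 2 subsets overlapped, at 8.0% to 20.2% and 6.79% to 19.3% in KO and at 53.9% to 71.2% and 46.7% to 65.5% in DKO.

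H3K4me3 peaks under WT-only sites were somewhat higher and longer than those with no WDR5 peak, and the part of this in the shares was not tested beyond the split by height. Their median WT fold was 4.61 against 4.40, and their median length 678 bases against 517. Within the highest quartile of all WT H3K4me3 peaks by fold, 21.2% of those under WT-only sites were called in KO (13.1% to 32.5%) against 16.6% of those with no WDR5 peak, and 81.8% (70.9% to 89.3%) against 76.1% in DKO. In the lowest quartile the shares were 2.63% (0.466% to 13.5%) against 2.00% in KO and 42.1% (27.9% to 57.8%) against 24.8% in DKO. Within quartiles the KO interval of the WT-only peaks reached the share of the peaks with no WDR5 peak in 3 of 4 quartiles. The exception was the second quartile, with 11.3% (5.29% to 22.6%) against 3.76%. In DKO the lowest quartile was the exception, and the intervals of the other quartiles reached the share of the peaks with no WDR5 peak.

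**Figure D4:**
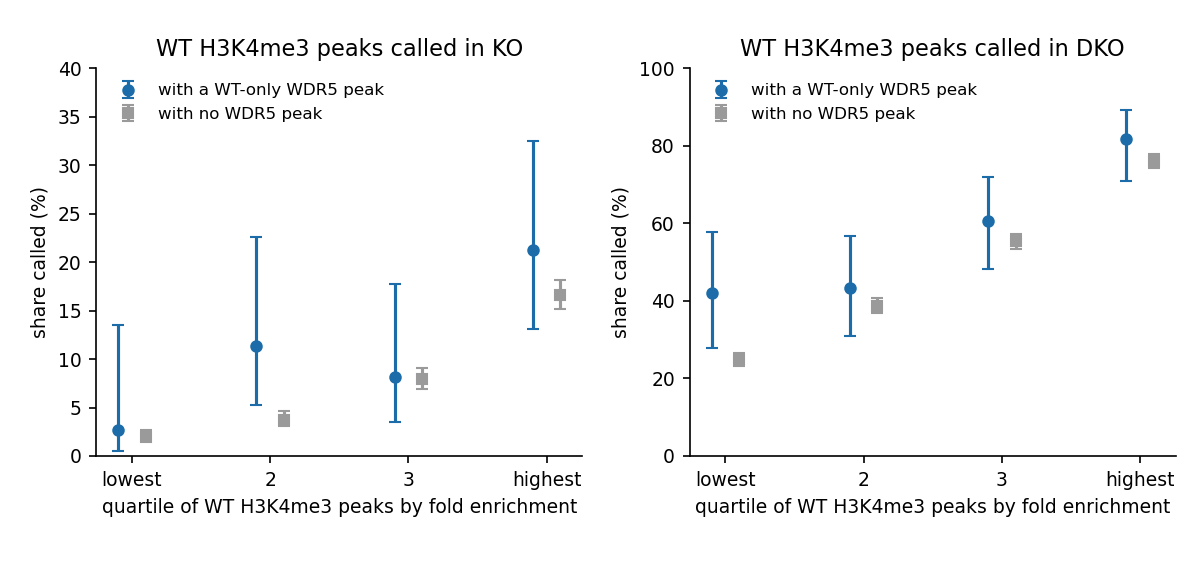
Share (%) of WT H3K4me3 peaks called in KO (left) and in DKO (right), by quartile of all WT H3K4me3 peaks by fold enrichment. Circles are peaks with a WT-only WDR5 site, squares are peaks with no WDR5 peak, and whiskers are Wilson 95% intervals of counting error. Shares are highest in the highest quartile, at 21.2% and 16.6% in KO and at 81.8% and 76.1% in DKO, and the KO share of WT-only peaks is lower in the third quartile (8.20%) than in the second (11.3%).

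The KO library was the shallowest and gave the fewest peaks, so depth and genotype cannot be told apart in the KO counts. When every H3K4me3 list was limited to its 918 highest peaks by −log10 q, the length of the KO list, 9 of 29 peaks under WT-only sites were called in KO (31.0%, 17.3% to 49.2%) against 30.4% of 835 with no WDR5 peak. In DKO they were 14 of 29 (48.3%, 31.4% to 65.6%) against 41.2%. Under P53-called sites 32 of 35 were called in KO (91.4%) and 34 of 35 in DKO.

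Ribosomal protein genes accounted for part of the WT-only peaks that KO retained. H3K4me3 was called in KO at 8 of the 18 peaks that carry a site at these genes (44.4%, 24.6% to 66.3%) and at 18 of the other 200 WT-only peaks (9%, 5.77% to 13.8%). Peaks at ribosomal protein genes with no WDR5 peak were called in KO in 16 of 69 (23.2%, 14.8% to 34.4%). In DKO the counts were 15 of 18 (83.3%), 115 of 200 (57.5%) and 53 of 69 (76.8%). The interval of the 18 overlaps that of the 69 in both genotypes.

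The fold values of the peaks called again were also set beside their WT values. The H3K4me3 fold was above its WT value in KO at 6 of the 8 ribosomal peaks called there, and in DKO at 9 of 15. Among the other WT-only peaks this held for 2 of 18 in KO and 20 of 115 in DKO, and among ribosomal peaks with no WDR5 peak for 6 of 16 and 21 of 53. The comparison was made after the values were seen, and the libraries are not scaled to each other, so the counts do not show a gain of the mark.

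Individual genes show the range. At Rpl9 the H3K4me3 fold was 7.50 in KO, 4.53 in DKO and 4.92 in WT, and WDR5 was called in the first WT list alone (4.69). At Rpl11 H3K4me3 had 6.72 in KO, 4.80 in DKO and 5.79 in WT, with WDR5 folds of 6.25 and 5.09 in WT. At Rps3 it had 4.74 in KO, 6.59 in DKO and 6.17 in WT, with WDR5 at 6.57 and 6.80. Rpl9, Rpl11 and Rps3 had no WDR5 call in DKO, and their H3K4me3 was called in both mutants. At Rps18 H3K4me3 had no peak in KO, 4.0 in DKO and 3.91 in WT, and at Rpl29 no peak in KO, 5.25 in DKO and 6.57 in WT. The H3K4me3 peaks that carry the sites at Rps19, Rpl13 and Rps6, at 3.54, 3.62 and 3.60 in WT, were called in neither mutant. These 3 were among the lower WT peaks of the 18, but the peak at Rpl23, lower at 3.41 in WT, was called in DKO (3.69). Counted by gene and not by peak, 16 of the 18 (88.9%) had H3K4me3 in DKO, all but Rpl13 and Rps19. This was near the share of the other marked ribosomal protein genes, 45 of 50 (90%). Over all marked protein-coding genes without a site it was 4420 of 7459 (59.3%).

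Outside ribosomal genes, the WT-only peaks called in KO included those at Heatr1, a factor of ribosomal RNA transcription and processing, with H3K4me3 folds of 7.95 in KO, 6.63 in DKO and 10.4 in WT. They included Nup85, a nuclear pore scaffold protein (6.49, 5.81 and 6.43 in KO, DKO and WT), Pcna, the replication clamp (5.16, 5.41 and 5.45), and Hspa9, the mitochondrial HSP70 (5.45, 5.07 and 5.57). Cct4 (4.52, 5.37 and 5.65), Cycs (4.59, 4.84 and 6.31) and Lrpprc, an RNA-binding protein of mitochondria (4.91, 5.39 and 4.51), were also among them. Heatr1 had the highest WT fold of the WT-only peaks called in KO.

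DKO-called sites lay at gene ends like the WT-only ones but were higher in WT, with a median fold of 6.19 against 4.90. In DKO their own folds were lower in the lists as deposited, with a median of 4.83 in DKO list 1 against 6.19 in WT list 1 over the 55, and 41 of the 55 were below their WT value. The second WT list was also below the first at 47 of the 48 DKO-called sites in both, with medians of 5.95 and 6.29. Of the 52 P53-called sites in DKO list 1, 35 were below their WT list 1 value, with medians of 7.95 in DKO and 7.55 in WT. By count, folds below WT list 1 were thus also seen in WT list 2 and at P53-called sites. The medians differed more at DKO-called sites in DKO list 1 (6.19 to 4.83) than in WT list 2 (6.29 to 5.95). At P53-called sites the DKO median was the higher one. At Cic, a transcriptional repressor of the MAPK pathway, WDR5 had folds of 6.75 and 6.68 in DKO and 9.95 and 9.38 in WT, and H3K4me3 had no peak in KO, 4.89 in DKO and 5.31 in WT. Between Arv1, a sterol transport gene, and Ttc13 WDR5 had 5.18 and 4.91 in DKO and 9.61 and 8.03 in WT. At Timm21, a subunit of the inner membrane translocase of mitochondria, it had 4.39 in DKO list 1, no peak in DKO list 2, and 8.49 and 7.94 in WT. Each of these loci kept a WDR5 call in cells labelled as lacking Wdr5, at a lower fold than in WT.

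**Figure D5:**
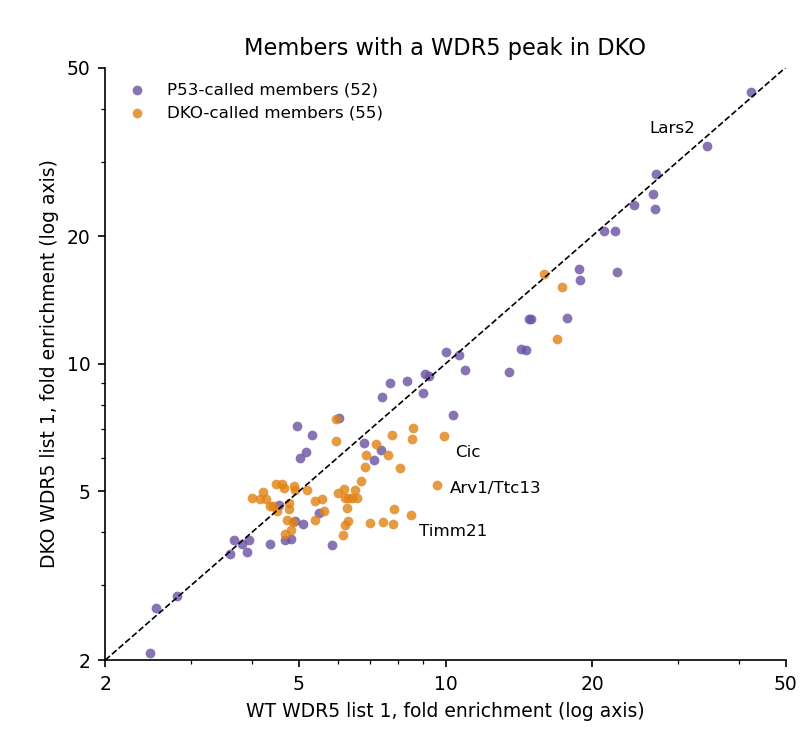
WDR5 fold enrichment in DKO list 1 (vertical, log axis) against WT list 1 (horizontal, log axis) for the 55 DKO-called sites and the 52 P53-called sites with a peak in that DKO list. The dashed line marks equal values, and 41 of the 55 DKO-called sites and 35 of the 52 P53-called sites lie below it. The folds are relative to the background of each library.

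The DKO-called sites at Kdm4a, Kat7 and Ing2 were picked after their values were seen, and no count of such genes was made. Kdm4a, a histone demethylase, had WDR5 folds of 4.83 and 4.47 in DKO and 6.59 and 6.54 in WT. Kat7, a histone acetyltransferase, had 4.80 and 4.70 in DKO and 4.27 and 4.15 in WT. Ing2, a reader of H3K4me3, had 4.98 and 4.61 in DKO and 4.21 and 3.96 in WT. Kdm4a was lower in DKO than in WT, and Kat7 and Ing2 were higher. A peak has to pass the threshold in WT to be a site, so high WT values are favoured by the choice, and the part of that in the lower DKO folds was not tested. The peaks were called without a control library, and whether the DKO peaks hold remaining WDR5 or background of the assay was not tested.

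The name P53-called gives list membership and not binding by P53. Of these 66 sites, 62 (93.9%) were called in a DKO P53 list, in cells labelled as lacking p53, and 55 (83.3%) in a WT P53 list. The P53-called sites held the highest values. The top one, on chromosome 6 from 103649105 to 103649292 within Chl1, a neural cell adhesion gene, had WDR5 folds of 43.7 and 39.1 in DKO and 42.5 and 38.2 in WT. Its H3K4me3 fold was 34.4 in DKO and 33.6 in WT, with no peak in KO, and P53 had no peak in the DKO lists and 38.5 and 34.5 in the WT lists. At Lars2, the mitochondrial leucyl-tRNA synthetase, WDR5 had 32.7 and 30.8 in DKO and 34.5 and 32.9 in WT, and H3K4me3 had 14.2 in KO, 15.8 in DKO and 18.1 in WT. The Lars2 site was in all 11 lists, with P53 at 15.8 and 16.2 in DKO and at 12.4 and 12.1 in WT, whereas the Chl1 site was missing from KO H3K4me3 and both DKO P53 lists. On chromosome 9 from 35305234 to 35305573, in the non-coding gene Gm33838, all 11 lists gave a fold between 25.4 and 33.1. P53 had 27.3 and 27.4 there in cells labelled as lacking p53, against 26.3 and 26.3 in WT. At this locus the values were close across antibodies and genotypes.

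Across the 66 P53-called sites the WDR5 and H3K4me3 folds in WT were correlated (Spearman 0.89 across sites, from 1 library each), whereas the value was 0.13 over the 219 WT-only and −0.13 over the 55 DKO-called sites. Sites are not independent replicates, and both folds are taken over the local background of the same loci. Of the 66, 31 overlapped no RefSeq gene of any kind, and 14 lay in the first 3.3 Mb of chromosomes 9 or 11. One overlapped Rn18s-rs5, a pseudogene of 18S ribosomal RNA, at 4.55. The P53-called sites were 10 on chromosome 9, 9 on chromosome 11 and 8 on chromosome 4, with 4 on X and 3 on Y. These chromosomes held 5.88%, 9.02%, 6.99%, 1.40% and 0.112% of the WT H3K4me3 peaks. No WT-only site lay on X or Y, which held few H3K4me3 peaks that could carry one. Chromosome 7 held 29 of the 219 WT-only sites (13.2%) and 7.36% of the WT H3K4me3 peaks.

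Leaving out the P53-called sites changes what the whole set shows. The remaining 274 sites had 20.1% called in a DKO WDR5 list and 81.0% within 1 kb of a gene end. Of their H3K4me3 peaks, 11.7% and 61.3% were called in KO and DKO. Over all WT H3K4me3 peaks, 76.9% lay this near a gene end, and 8.08% and 49.2% were called in KO and DKO. The count of ribosomal protein genes stayed at 18, since none of them carried a P53-called site.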

How the data were processed

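The authors' peak caller, per the file headers, was MACS 2.1.2 for the lists numbered 1 of WDR5 and P53 and MACS 2.1.0.20150731 for the others, run in paired-end mode at q 0.01 and without a control library. The submitters' processing notes name Bowtie2, SAMtools 1.5, bedtools, MACS2 2.1.0, HOMER 4.10 and build mm10, without their roles. The pileup, a coverage signal in fragments, the −log10 p and −log10 q values, and the fold enrichment, a ratio to the local background, are the authors' deposited values per peak. They rank and describe peaks of a list, and values of several lists stand side by side unscaled. Without a control library or spike-in, numbers of peaks move with depth and background.

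Analysis was limited to chromosomes 1 to 19, X and Y, and sharing meant 1 base or more. Gene spans and start sites came from RefSeq tables of GRCm38.p6, with 782 of 785 list entries matched. The fate of a mark was counted over distinct WT H3K4me3 peaks. Where a peak carried sites of more than 1 group (1 peak), P53-called came before DKO-called and DKO-called before WT-only. Shares have Wilson 95% intervals for counting error. No test was run across genotypes, since each was counted as 1 library per antibody. The planned comparisons were counts and shares, and overlap code was tested on simulated intervals. Genes were named by height in the lists (highest in both WT lists and absent from DKO, highest in DKO, highest H3K4me3 in KO, highest WT H3K4me3 absent from both mutants), by list membership and by shared sites. The members, gene lists and named genes were chosen with earlier results of these data known. Python 3.11.15, numpy 2.4.6, pandas 2.3.3, scipy 1.17.1 and matplotlib 3.10.9 were used.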

Additional observations from a re-analysis of the deposited data

How the results depend on the processing

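No paired analysis was possible because the lists numbered 1 and 2 share fragments and no result comes from a test. With the second WT list in place of the first, there were 221 sites, with 97.7% in the other WT list, 44.3% in a DKO WDR5 list, 23.5% on a WT P53 peak and 59.7% near a gene end, and their H3K4me3 peaks were called in 29.95% in KO and 71.9% in DKO. At −log10 q of 5 or more in the WDR5 and P53 lists, 221 sites gave 39.4% in DKO WDR5, 21.3% on WT P53 and 60.2% near a gene end, with 30.4% in KO and 71.9% in DKO. The top 50% by fold left 186 sites, with 82.3% in the second list, 40.9% in DKO WDR5 and 71.9% of H3K4me3 peaks in DKO. Counting sites within 500 bases of the mark gave 26.4% in DKO WDR5, 18.1% in KO, 71.7% near a gene end, 11.8% on WT P53 and a median summit distance of 283 bases. Requiring the WDR5 summit inside the mark gave 96 bases. Summits within 50 bases were shared between WT lists at 58.2%. H3K4me3 lists of equal length gave 55.4% in KO, and sites in both WT lists and neither DKO list 16.1%. The gene-end share was 76.5% at 5 kb and 59.7% for start sites. Without sites on a P53 peak, an alternative added after seeing the data, 20.1% were in DKO WDR5, 11.7% and 61.3% of H3K4me3 peaks were called in KO and DKO, 81.0% lay near a gene end, and 0% were on WT P53 by construction. Except where that construction or a smaller set of sites shows it, the cause was not tested. Of 88 values under these alternatives, 55 stayed within the counting interval or within 1.5 times the count; the ribosomal protein gene count, 13 to 22, was among them under every alternative run. Without a WT or DKO list in turn the DKO WDR5 share was 27.4% to 44.3% and the WT P53 share 14.7% to 23.5%. WDR5 summits rest on a median of 21 fragments, so weak peaks can miss the threshold in any list, and with 1 library per genotype differences between genotypes carry no error.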
